A study of Mus musculus with 29 samples.

Results

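The monocyte chemoattractant chemokines described here are Ccl2, Ccl7, Ccl8 and Ccl12, 4 of the 12393 genes measured on the arrays. They were chosen by name, as members of one chemokine gene cluster, and each was taken from the probe sets annotated to that gene alone. Each gene had 1 such probe set, 1420380_at for Ccl2, 1421228_at for Ccl7, 1419684_at for Ccl8 and 1419282_at for Ccl12. In the reference gene table these genes lie side by side on mouse chromosome 11 in the order Ccl2, Ccl7, Ccl11, Ccl12, Ccl8 and Ccl1, so that Ccl11 separates the first pair from the second.

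Chemokines of this family are small secreted proteins that draw monocytes and other leukocytes out of the blood along a gradient. In mice, Ccl2, Ccl7 and Ccl12 are ligands of Ccr2, the receptor that lets monocytes leave the bone marrow and enter inflamed tissue, whereas mouse Ccl8 is known as a ligand of Ccr8. Macrophages are a main source of these proteins.

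RNA was measured in cultured macrophages derived from bone marrow, taken from C57BL/6 mice that were wild type and 8 weeks old. Marrow cells were kept in Teflon bags for 7 days with CSF-1, the cytokine on which macrophages depend, and then for 24 h in CSF-1 (10 ng/ml in every group) with or without further cytokines at 10 ng/ml. The groups were IL-4 plus IL-6 (5 arrays), IL-10 together with IL-4 (3), IL-4 (5), IL-6 (5), IL-10 (3) and unstimulated cells that received CSF-1 alone (8). IL-4 signals through STAT6, and IL-6 and IL-10 signal through STAT3, so the design asks how the cytokines act alone and together. The labels do not say whether arrays of a group came from separate mice or cultures, and the p-values measure the spread between these arrays, which may be technical.

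All values are log2 intensities as the authors made them, 1 per probe set and array. Tests were run on the 7153 genes that exceeded the overall median, log2 6.99, on 3 or more arrays. That median is called the filter here. A value under the filter is not read as expression, and a fold is given only where both group means lie above it. Of the members, Ccl2 was above the filter on all 29 arrays, Ccl7 on 21, and Ccl8 and Ccl12 on 16 each. Ccl7, Ccl8 and Ccl12 thus entered the tests only through the stimulated groups in which they were high, and their calls against groups under the filter, and their interactions, are given as description. Array medians ranged from 6.95 to 7.03. All 9 measured macrophage markers had means above the filter in every group, among them Csf1r, Cd68 and Adgre1. Of 7 neutrophil markers, 4 had means above it in every group, among them S100a8 (10.74 to 11.89). Of 8 B lineage markers, 1 to 4 did by group, with Ighm in every group (10.27 to 12.50). Of 5 endothelial markers Vwf alone did, in every group (8.05 to 10.03). None of the 7 markers of T and NK cells had a group mean above it. Of 9 markers of mast cells, basophils and eosinophils Siglecf alone did (7.99 with IL-4 and 7.02 in unstimulated cells), of 6 of dendritic cells Ccr7 alone (7.14 with IL-4 and 7.29 with IL-4 plus IL-10), and of 10 of fibroblasts and stroma Postn alone (7.19 with IL-4 plus IL-6). In bulk RNA, fewer cells of a type and less RNA per cell cannot be told apart. Replicates 6 to 8 exist only in the unstimulated group, and were taken as the controls run with the IL-10 and IL-4 plus IL-10 arrays (the second set), with replicates 1 to 5 as those of the other groups (the first set). This division is inferred from the replicate numbers and not stated in the labels.

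Both IL-4 combinations raised all 4 transcripts, and each combination gave a higher level than either of its single cytokines. The log2 differences from unstimulated cells lay between 3.34 for Ccl2 and 8.51 for Ccl8 with IL-4 plus IL-6, and between 3.26 for Ccl2 and 7.82 for Ccl8 with IL-4 plus IL-10. The single cytokines divided the members into pairs. Ccl2 and Ccl7 were higher with IL-4 than with IL-6 or IL-10, and Ccl8 and Ccl12 were higher with IL-6 or IL-10 than with IL-4.

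Ccl2, the prototype of the family and a major Ccr2 ligand, was above the filter in every group. It read 11.94, 11.92, 12.36, 12.10 and 12.42 with IL-4 plus IL-6, and 12.14, 12.04 and 12.05 with IL-4 plus IL-10. It read 10.09, 10.28, 10.50, 10.18 and 10.52 with IL-4, 9.51, 9.76, 9.65, 9.52 and 9.81 with IL-6, and 9.61, 8.90 and 8.58 with IL-10. Unstimulated cells ranged from 7.91 to 9.17 with a median of 8.95. The arrays of both combinations lay above every array of the single cytokines, the IL-4 and IL-6 arrays lay above every unstimulated array, and the IL-10 arrays overlapped the unstimulated ones.

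Against unstimulated cells (mean 8.81 ± 0.42, SD, n = 8), Ccl2 was 10.1-fold higher with IL-4 plus IL-6, a log2 difference of 3.34 ± 0.17 (SE, limma, adjusted p = 1.88e-16). With IL-4 plus IL-10 it was 9.60-fold higher (3.26 ± 0.20, adjusted p = 3.26e-14). IL-4 raised it 2.83-fold (1.5 ± 0.17, adjusted p = 1.14e-08) and IL-6 1.79-fold (0.84 ± 0.17, adjusted p = 0.00019). The difference with IL-10 did not pass the test (0.22, 95% interval -0.19 to 0.62, adjusted p = 0.408). That difference was -0.071 without IL-10 replicate 1, whose value of 9.61 was the highest of the 3, and 0.53 with a term for the set (adjusted p = 0.070 by limma).

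Ccl7, a ligand of Ccr2 that also binds Ccr1 and Ccr3, had a low level in unstimulated cells. It read 12.10, 11.95, 12.52, 12.13 and 12.44 with IL-4 plus IL-6 and 11.88, 12.11 and 11.99 with IL-4 plus IL-10. With IL-4 it read 8.43, 8.73, 9.02, 8.71 and 9.09, with IL-6 7.86, 8.05, 8.10, 7.69 and 8.21, and with IL-10 7.92, 7.07 and 7.09. Unstimulated cells lay between 6.41 and 6.78 with a median of 6.64, all of them under the filter. No array of a stimulated group reached down to the unstimulated range, and the IL-4 arrays lay above those of IL-6 and IL-10.

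Ccl7 was 10.8-fold higher with IL-4 plus IL-6 than with IL-4 (3.43 ± 0.14, adjusted p = 7.74e-18), and 19.0-fold higher than with IL-6 (4.25 ± 0.14, adjusted p = 4.06e-20). IL-4 plus IL-10 stood 9.18-fold above IL-4 (3.20 ± 0.16, adjusted p = 4.75e-15) and 24.8-fold above IL-10 (4.63 ± 0.18, adjusted p = 5.79e-18). Against unstimulated cells, whose mean of 6.62 allows no fold, the log2 differences were 5.61 with IL-4 plus IL-6, 5.37 with IL-4 plus IL-10, 2.18 with IL-4, 1.36 with IL-6 and 0.74 with IL-10. All of these differences from unstimulated cells were called. They are given as description, because every unstimulated array was under the filter and Ccl7 entered the tests through the stimulated groups.

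Ccl8, a ligand of Ccr8 in mice, was high in both combinations and under the filter in unstimulated cells. It read 14.30, 14.41, 14.27, 14.23 and 14.14 with IL-4 plus IL-6 and 13.37, 13.71 and 13.65 with IL-4 plus IL-10. The IL-6 arrays read 8.58, 8.80, 8.66, 8.52 and 9.05 and the IL-10 arrays 8.27, 9.12 and 8.92. IL-4 arrays read 6.91, 6.36, 6.48, 6.32 and 6.57, against unstimulated arrays between 5.11 and 6.25 with a median of 5.84. IL-6 and IL-10 arrays overlapped each other and stood apart from all others. The IL-4 arrays lay just above the unstimulated ones, and every array of both groups was under the filter.

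With IL-4 plus IL-6, Ccl8 was 46.8-fold higher than with IL-6 (5.55 ± 0.16, adjusted p = 2.20e-21). With IL-4 plus IL-10 it was 28.03-fold higher than with IL-10 (4.81 ± 0.21, adjusted p = 5.57e-17). The log2 differences from IL-4 were 7.74 for IL-4 plus IL-6 and 7.05 for IL-4 plus IL-10. Against unstimulated cells the differences were 8.51 with IL-4 plus IL-6, 7.82 with IL-4 plus IL-10, 2.97 with IL-6 and 3.01 with IL-10. The difference with IL-4 alone (0.77 ± 0.15, adjusted p = 5.64e-05) passed the test, but both means, 6.53 with IL-4 and 5.76 in unstimulated cells, lay under the filter.

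Ccl12, a Ccr2 ligand in mice, had the same order of groups as Ccl8. It read 11.22, 11.41, 11.65, 11.31 and 11.30 with IL-4 plus IL-6 and 9.55, 10.04 and 9.94 with IL-4 plus IL-10. IL-6 arrays read 7.72, 7.79, 7.86, 7.58 and 8.33, and IL-10 arrays 7.88, 8.26 and 7.96. IL-4 arrays read 4.93, 4.34, 5.56, 4.53 and 4.79, against unstimulated arrays between 4.08 and 4.90 with a median of 4.54. The arrays of IL-4 alone overlapped the unstimulated arrays, and both lay far under the filter.

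Ccl12 was 11.5-fold higher with IL-4 plus IL-6 than with IL-6 (3.52 ± 0.17, adjusted p = 2.38e-16) and 3.5-fold higher with IL-4 plus IL-10 than with IL-10 (1.81 ± 0.22, adjusted p = 8.62e-08). Its log2 difference from unstimulated cells was 6.83 with IL-4 plus IL-6, 5.30 with IL-4 plus IL-10, 3.31 with IL-6 and 3.49 with IL-10. With IL-4 alone the difference of 0.28 (95% interval -0.038 to 0.60) did not pass the test (adjusted p = 0.123). Without IL-4 replicate 2, whose value of 4.34 was the lowest of that group, it was 0.405 and passed (adjusted p = 0.0296).

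**Figure D1:**
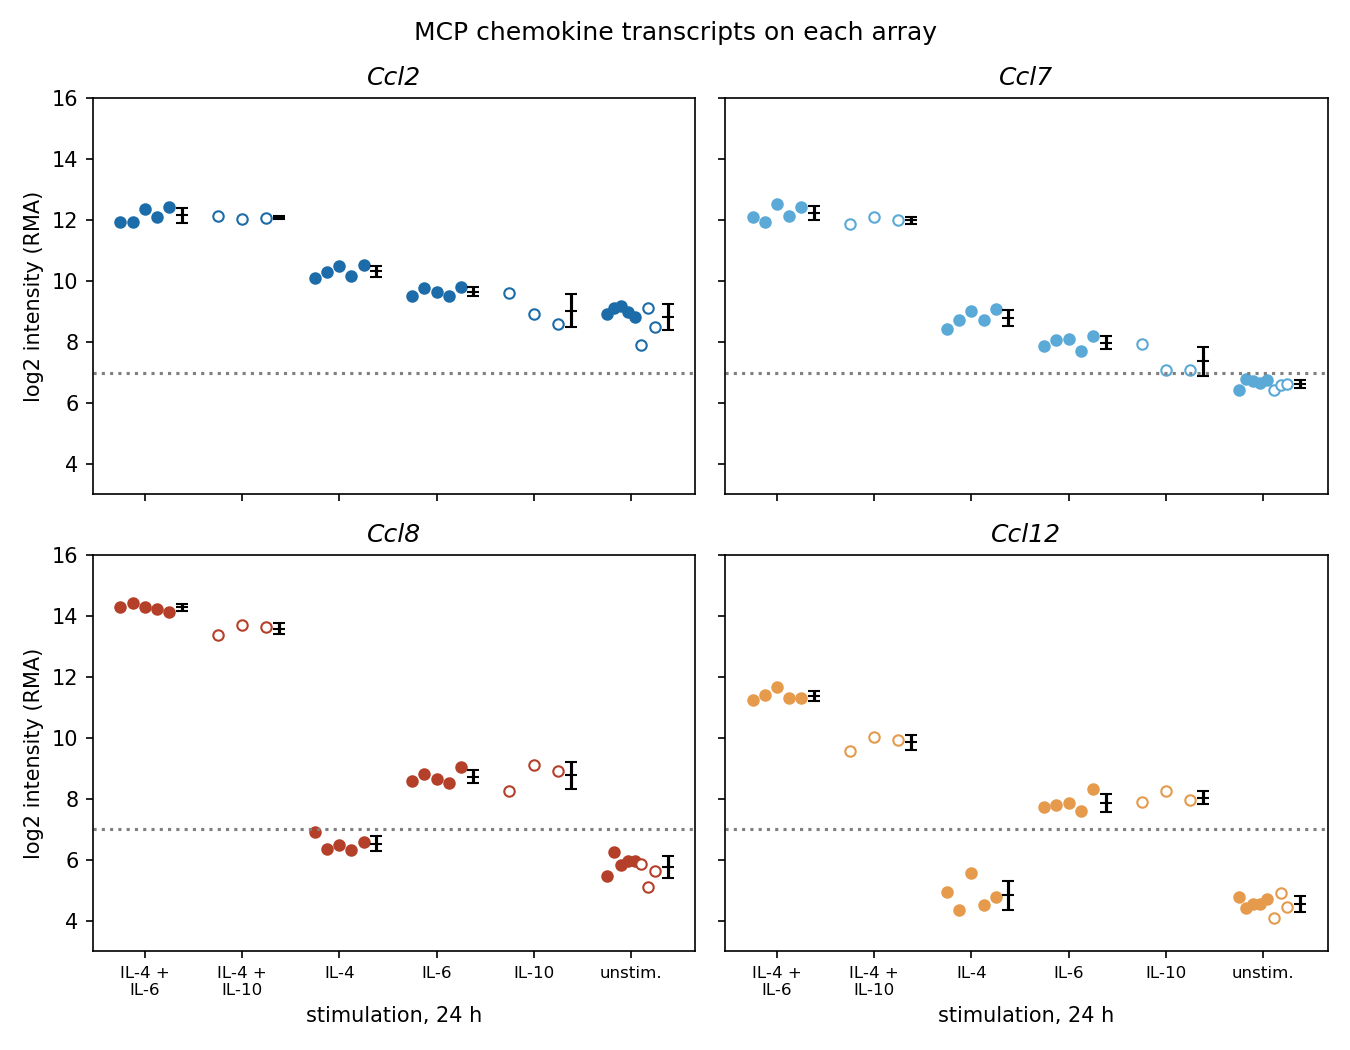
Log2 intensity (RMA) of each member on each of the 29 arrays, by stimulation, with filled points for the first set, open points for the second set, bars for the mean and SD, and a dotted line at the filter (6.99). All arrays of both combinations lie above all others for every member, and IL-4 exceeds IL-6 for Ccl2 and Ccl7 but not for Ccl8 and Ccl12.

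The members' calls are listed here beside the share of all tested genes called higher in the same comparison, and nothing is read from them, since 3 of the members entered the tests through the groups in which they were high. With IL-4 plus IL-6 against unstimulated cells all 4 members were called higher, where 35% of the tested genes were, and with IL-4 plus IL-10 all 4, where 38.1% were. With IL-4 alone it was 3 of 4, Ccl8 with both means under the filter among them, against 27.6% of genes, with IL-6 4 of 4 against 16.1%, and with IL-10 3 of 4 against 18.3%. The median log2 difference of the members was 6.22 with IL-4 plus IL-6, 5.34 with IL-4 plus IL-10, 1.14 with IL-4, 2.16 with IL-6 and 1.88 with IL-10, while the median of all tested genes lay within 0.031 of 0 in each. These comparisons share the unstimulated arrays. All 4 members were also higher with each combination than with each of its single cytokines. The shares of genes called higher were 29.4% for IL-4 plus IL-6 against IL-4, 34% for IL-4 plus IL-6 against IL-6, 32.7% for IL-4 plus IL-10 against IL-4 and 31.8% for IL-4 plus IL-10 against IL-10. The comparison of IL-4 plus IL-10 with IL-4 crosses the sets. Once the set entered the fit as a term, the differences were 2.26 for Ccl2, 3.33 for Ccl7, 7.41 for Ccl8 and 5.14 for Ccl12, all of them called.

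**Figure D2:**
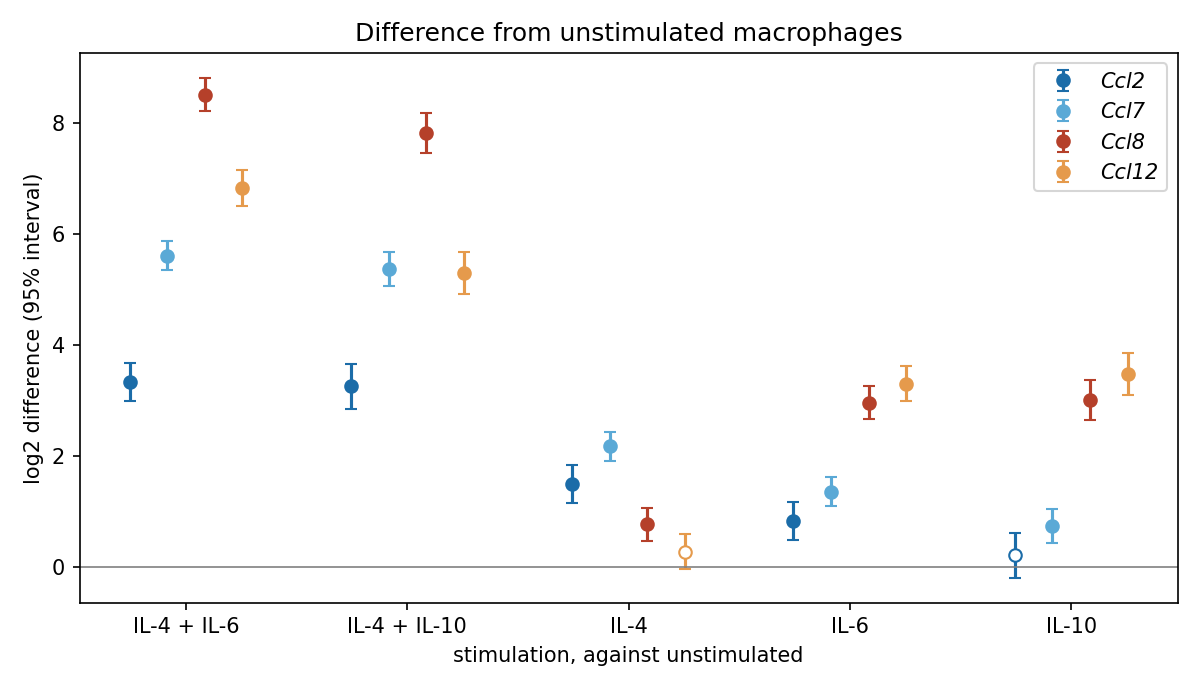
Log2 difference from unstimulated cells for each member and stimulation, with 95% intervals from limma, where open points did not pass the test. Ccl8 has the largest difference in both combinations (8.51 and 7.82), and the points of Ccl2 and Ccl7 lie above those of Ccl8 and Ccl12 with IL-4 but below them with IL-6 and IL-10. Ccl8 and Ccl12 were under the filter on every IL-4 and unstimulated array.

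Whether members responded differently was tested on the difference between 2 members within each array, with exact permutation tests (two-sided, 6 pairs in each of 5 stimulations, adjusted over the 30). A probe set with a low level can understate a change, so the sizes of these differences also depend on the probe sets. Every pair holds a member that was under the filter in unstimulated cells, so all these pair tests are given as description. In the IL-4 comparison, Ccl8 and Ccl12 were under the filter on every array of both groups, and how much they changed there cannot be judged. No order is therefore read from the IL-4 values that follow. With IL-4, the difference from unstimulated cells was larger for Ccl7 than for Ccl12 by 1.89 ± 0.22 (SE) and than for Ccl8 by 1.41 ± 0.22. It was also larger for Ccl2 than for Ccl12, by 1.22 ± 0.22 (adjusted p = 0.00179 for each of these 3 by the exact permutation test). Ccl2 exceeded Ccl8 by 0.73 ± 0.25 with IL-4 (exact permutation test, adjusted p = 0.0317), a call that was lost without IL-4 replicate 2 (0.698), 3 (0.675), 4 (0.714) or 5 (0.691).

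With IL-6, Ccl2 and Ccl7 each changed less than Ccl8 and Ccl12, with differences between -2.47 and -1.60 (exact permutation test, adjusted p = 0.00179 for all 4). With IL-10 these 4 differences lay between -3.27 and -2.27 (exact permutation test, adjusted p = 0.00790, where 3 arrays against 8 cannot go below an unadjusted p of 0.00606). Within the pairs, Ccl2 changed less than Ccl7 with IL-4 (-0.67, adjusted p = 0.0079) and IL-6 (-0.53, adjusted p = 0.0194) by the exact permutation test. Ccl8 and Ccl12 did not differ past the threshold with any single cytokine (0.49 ± 0.28 with IL-4, -0.34 ± 0.20 with IL-6 and -0.48 ± 0.26 with IL-10). Their difference passed it with IL-4 without IL-4 replicate 3 (0.683), and with IL-6 without unstimulated replicate 7 (-0.486).

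In the combinations the responses spread out. With IL-4 plus IL-6 all 6 pairs differed (exact permutation test, adjusted p = 0.00179 for each), Ccl8 exceeding Ccl12 by 1.68 ± 0.21, Ccl12 exceeding Ccl7 by 1.22 ± 0.14 and Ccl7 exceeding Ccl2 by 2.27 ± 0.13. With IL-4 plus IL-10, Ccl8 exceeded Ccl12 by 2.52 ± 0.20, and Ccl7 and Ccl12 could not be told apart (0.077 ± 0.13, exact permutation test, adjusted p = 0.703).

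The groups were ordered for each member from the fit over all arrays. For Ccl2 and Ccl7 both combinations came first and did not differ past the threshold, by 0.072 for Ccl2 (95% interval -0.37 to 0.51) and 0.24 for Ccl7 (-0.10 to 0.57), each given as the IL-6 combination minus the IL-10 combination. IL-4 came next, then IL-6, which was lower than IL-4 by log2 differences of -0.66 ± 0.18 for Ccl2 (limma, adjusted p = 0.00298) and -0.81 ± 0.14 for Ccl7 (limma, adjusted p = 1.69e-05). For Ccl8 and Ccl12 the order in the values as deposited was the combination with IL-6, the combination with IL-10, then IL-10 and IL-6, then IL-4 and unstimulated cells. The combinations belong to different sets. With a term for the set, the step between them did not pass for Ccl8 (0.34, limma, adjusted p = 0.413) and passed for Ccl12 (1.41, adjusted p = 0.000872). IL-10 and IL-6 did not differ past the threshold for Ccl8 (0.044, 95% interval -0.34 to 0.43) or Ccl12 (0.18, -0.23 to 0.59). The IL-6 level exceeded that with IL-4 by 2.20 for Ccl8 and by 3.03 for Ccl12, which is given as description because both genes were under the filter on every IL-4 array. Of all tested genes, 27.8% were called higher and 31.4% lower with IL-6 than with IL-4. Against IL-4, IL-10 gave log2 differences of -1.28 for Ccl2, -1.43 for Ccl7, 2.24 for Ccl8 and 3.21 for Ccl12 in the values as deposited, where 30.9% of the tested genes were called higher and 27.8% lower. IL-10 and IL-4 arrays belong to different sets, and with the term for the set the difference was -0.79 for Ccl2 (limma, adjusted p = 0.0208) and -1.31 for Ccl7 (adjusted p = 4.48e-05), against 2.60 for Ccl8 and 3.33 for Ccl12.

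Between IL-10 and IL-6, Ccl7 alone of the members passed the test. It was lower with IL-10 than with IL-6 (-0.62 ± 0.16, limma, adjusted p = 0.020), where 5.62% of the tested genes were called lower, although IL-10 replicate 1 (7.92) lay within the IL-6 range. Without IL-10 replicate 2 (-0.478) or 3 (-0.484) it did not pass. For Ccl2 the difference was -0.62 ± 0.21 (limma, adjusted p = 0.0545), and it passed without IL-10 replicate 1 (-0.91) or without unstimulated replicate 6 or 7 (-0.62 each). IL-10 and IL-6 arrays belong to different sets, and with a term for the set neither difference passed the test (-0.49 for Ccl7 and -0.12 for Ccl2), so that set and cytokine cannot be told apart beyond what the unstimulated arrays of each set allow. Unstimulated Ccl2 averaged 8.50 in the second set and 8.999 in the first.

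IL-4 plus IL-6 gave more Ccl12 than IL-4 plus IL-10, a 2.90-fold difference (1.53 ± 0.20, limma, adjusted p = 1.23e-06), in a comparison where 16% of the tested genes were called higher. With a term for the set it was 1.41 ± 0.28 (adjusted p = 0.000872). Ccl8 was 1.62-fold higher with IL-4 plus IL-6 than with IL-4 plus IL-10 (0.70 ± 0.19, limma, adjusted p = 0.00411), with no overlap between the arrays. With the term for the set that difference was 0.34 and did not pass (adjusted p = 0.413).

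Each combination exceeded the sum of its single cytokines for every member. On the log2 scale, where additive effects multiply intensities, the interaction is the level in the combination, minus the levels with each single cytokine, plus the level in unstimulated cells. With IL-6 it was 0.996 ± 0.25 for Ccl2 (limma, adjusted p = 0.00196), 2.07 ± 0.19 for Ccl7, 4.78 ± 0.22 for Ccl8 and 3.24 ± 0.23 for Ccl12. With IL-10 it was 1.54 ± 0.29 for Ccl2 (adjusted p = 0.000245), 2.46 ± 0.22 for Ccl7, 4.04 ± 0.26 for Ccl8 and 1.53 ± 0.27 for Ccl12 (adjusted p = 0.000128). Of all tested genes, 21.4% had a positive call with IL-6 and 15.5% with IL-10. All 8 interactions of the members were called, from which nothing is read for Ccl7, Ccl8 and Ccl12.

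The size of the excess is best seen for Ccl2, whose 4 groups in each interaction all lay above the filter. Adding its single differences to the unstimulated mean gives 11.15 for IL-4 plus IL-6, against a lowest observed array of 11.92, and 10.53 for IL-4 plus IL-10, against a lowest array of 12.04. For Ccl8 the additive level was 9.49 for IL-4 plus IL-6, where the arrays averaged 14.27 ± 0.099 (SD, n = 5). For IL-4 plus IL-10 its additive level was 9.54, where the arrays averaged 13.57 ± 0.18 (SD, n = 3). The interactions of Ccl7, Ccl8 and Ccl12 use group means under the filter, so their sizes depend on how those low values were estimated.

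**Figure D3:**
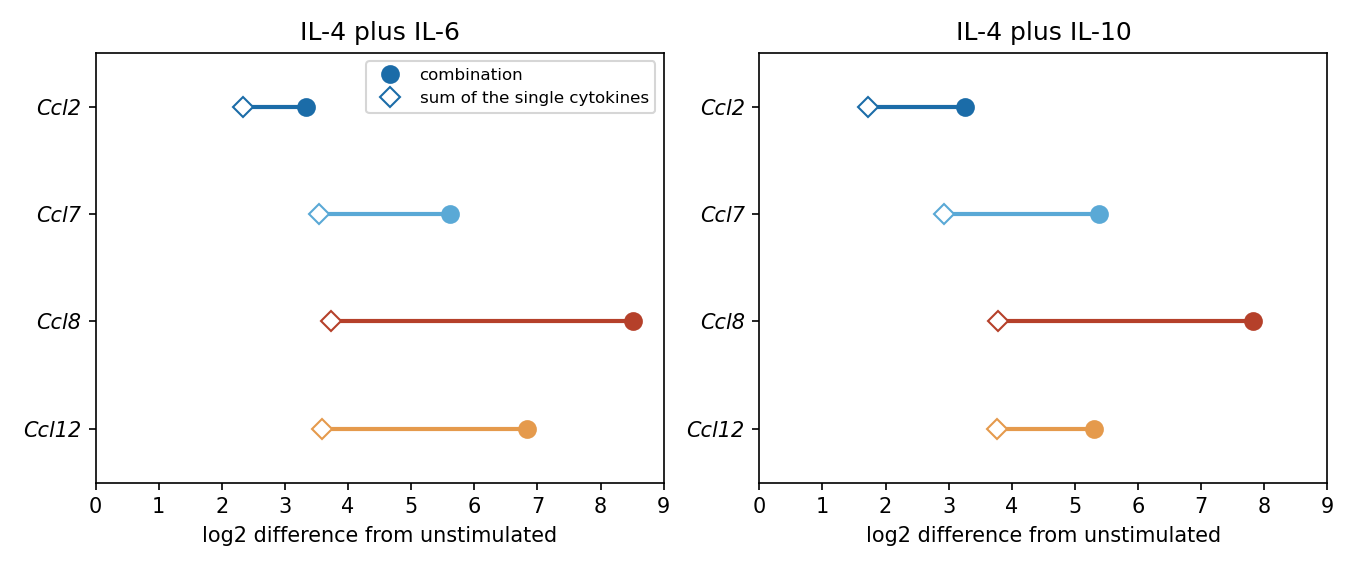
Observed log2 difference of each combination from unstimulated cells (filled circles) and the sum of the single cytokines' differences (open diamonds), for each member. The circle lies right of the diamond in all 8 cases, and the gap is widest for Ccl8 (4.78 with IL-6 and 4.04 with IL-10).

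Ccl8 and Ccl12 were each other's nearest gene. Over the 5 differences from unstimulated cells, the root mean square distance between them was 1.4 log2 units, the smallest from either to any of the other 7152 tested genes. Gja1, the gap junction protein connexin 43, came next for both, at 1.93 from Ccl8 and 1.42 from Ccl12. Ednrb (1.46), an endothelin receptor, Timp1 (1.49), an inhibitor of matrix metalloproteases, and Ch25h (1.76), which makes an oxysterol, followed for Ccl12, and Ccl7 (2.20), Chil4 (2.35) and Ccl24 (2.36) for Ccl8. The nearest to Ccl2 were Tuba8 (0.39), Cst7 (0.39), Pdia4 (0.49), Socs1 (0.49) and Prps1 (0.57). Those nearest to Ccl7 were Adipoq (0.82), Fn1 (0.84), Cdh1 (0.87), Pdcd1lg2 (0.95) and Chil4 (0.96). Ccl2 and Ccl7 were 1.46 apart, little more than Ccl8 and Ccl12, but Ccl7 ranked 169 for Ccl2 and Ccl2 ranked 14 for Ccl7. The distances rest on differences that share the unstimulated arrays and carry no test. For Ccl7, Ccl8 and Ccl12 they use unstimulated values under the filter, and for Ccl8 and Ccl12 also IL-4 values under it.

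The sequences around the starts of Ccl8 and Ccl12 are shown, from RefSeq on build GRCm38.p6. Each runs from 250 bases before to 50 bases after the start of the gene. The promoter reference held no entry for Ccl2 and Ccl7, so whether they share the features below was not examined. The Ccl8 window is chr11:82114935-82115234 and the Ccl12 window chr11:82101595-82101894, both on the plus strand, and capitals mark the motif TATAAA.
Ccl8: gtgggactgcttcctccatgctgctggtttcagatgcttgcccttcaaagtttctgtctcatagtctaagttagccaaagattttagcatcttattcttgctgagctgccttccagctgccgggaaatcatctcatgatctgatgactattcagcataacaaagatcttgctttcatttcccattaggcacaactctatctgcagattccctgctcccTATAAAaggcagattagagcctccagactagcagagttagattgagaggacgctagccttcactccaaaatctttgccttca
Ccl12: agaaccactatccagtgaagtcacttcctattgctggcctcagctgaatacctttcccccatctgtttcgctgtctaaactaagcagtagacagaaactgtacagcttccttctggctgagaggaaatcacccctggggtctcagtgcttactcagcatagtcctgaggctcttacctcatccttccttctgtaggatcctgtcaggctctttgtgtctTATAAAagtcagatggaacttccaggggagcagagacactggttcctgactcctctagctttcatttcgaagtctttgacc
TATAAA stood at -32 to -27 in Ccl8 and at -31 to -26 in Ccl12, counted from the start of the gene, and 13.6% of the 32851 mouse promoters of the same length hold it on either strand. The best local alignment of the windows covered this motif and the bases up to the start, with 28 of 36 aligned positions identical (77.8%). Among all other promoters, Ccl12 ranked 26 by alignment score to Ccl8, and Ccl8 ranked 39 to Ccl12. The STAT motif TTCNNNGAA, found in 8.30% of promoters, the same half-sites with a spacer of 4 bases, found in 6.95%, and the NF-kappaB motif, found in 8.46%, were searched on both strands. None of these 3 motifs was in either window, which says only that these letters are not there.

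The receptors of these chemokines moved in their own ways. Of 6 measured receptor genes, Ccr1, Ccr2 and Ccr3 were tested, and Ccr8, Ackr1 and Ackr2 had means under the filter in every group. Ccr2, the receptor of Ccl2, Ccl7 and Ccl12, averaged 8.15 ± 0.23 (SD, n = 5) with IL-4 plus IL-6 and 8.75 ± 0.090 (SD, n = 3) with IL-4 plus IL-10, against 10.57 ± 0.16 (SD, n = 8) in unstimulated cells. No array of either combination reached the lowest unstimulated array (10.38). Ccr2 thus fell by 2.42 on the log2 scale with IL-4 plus IL-6 (limma, adjusted p = 5.78e-19) and by 1.82 with IL-4 plus IL-10 (adjusted p = 4.41e-14). With IL-4 alone the difference was -0.47, whereas it was 0.51 with IL-6 and 0.66 with IL-10, all 3 called. The interactions of Ccr2 were negative, -2.46 with IL-6 and -2.0 with IL-10, opposite in sign to those of its ligand Ccl2 (0.996 and 1.54).

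Ccr1, which Ccl7 also binds, rose by 2.31 on the log2 scale with IL-4 plus IL-6, 1.65 with IL-4 plus IL-10, 1.77 with IL-6 and 1.71 with IL-10 (limma, adjusted p at most 3.07e-15), and by 0.19 with IL-4 (adjusted p = 0.0219). Ccr3 rose with IL-6 (1.31) and IL-10 (1.14), each against an unstimulated mean of 6.77 that lay under the filter. It had a called difference of -0.55 with IL-4, both means under the filter, and it was lower with IL-4 plus IL-6 than with IL-6 (-1.01) and with IL-4 plus IL-10 than with IL-10 (-0.86, both called).

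The neighbours of the members in the cluster stayed low. Ccl11, an eosinophil chemoattractant between Ccl7 and Ccl12, had group means of 3.78 to 4.02, and Ccl1, a Ccr8 ligand beyond Ccl8, had means of 4.76 to 4.86, all under the filter and therefore untested.

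Among 14 tested chemokines outside the cluster, 7 were higher and 6 lower with IL-4 plus IL-6 than in unstimulated cells, with a median difference of 0.11, and 8 were higher and 5 lower with IL-4 plus IL-10 (median 0.30). Of all tested genes, 38.8% were called lower with IL-4 plus IL-6 and 34% with IL-4 plus IL-10. Ccl24, an eosinophil chemoattractant, averaged 13.85 ± 0.13 (SD, n = 5) with IL-4 plus IL-6 and 10.01 ± 0.37 (SD, n = 5) with IL-4, against 6.38 ± 0.19 (SD, n = 8) in unstimulated cells. Its interactions were positive, 3.93 with IL-6 and 3.36 with IL-10. They are given as description, because its means in unstimulated cells, with IL-6 (6.29) and with IL-10 (6.45) lay under the filter. Ccl17 and Ccl22, ligands of Ccr4, had negative interactions with IL-6 (-2.61 and -1.57), and averaged 5.89 and 7.14 with IL-4 plus IL-6, against 8.44 and 9.14 with IL-4 alone. Their interactions are also description, since both genes lay under the filter in unstimulated cells and with IL-6. The neutrophil chemoattractants Cxcl2 and Cxcl1 fell by 2.79 and 2.21 on the log2 scale with IL-4 plus IL-6, and Cxcl10, a ligand of Cxcr3, fell by 2.01, each to a mean under the filter.

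**Figure D4:**
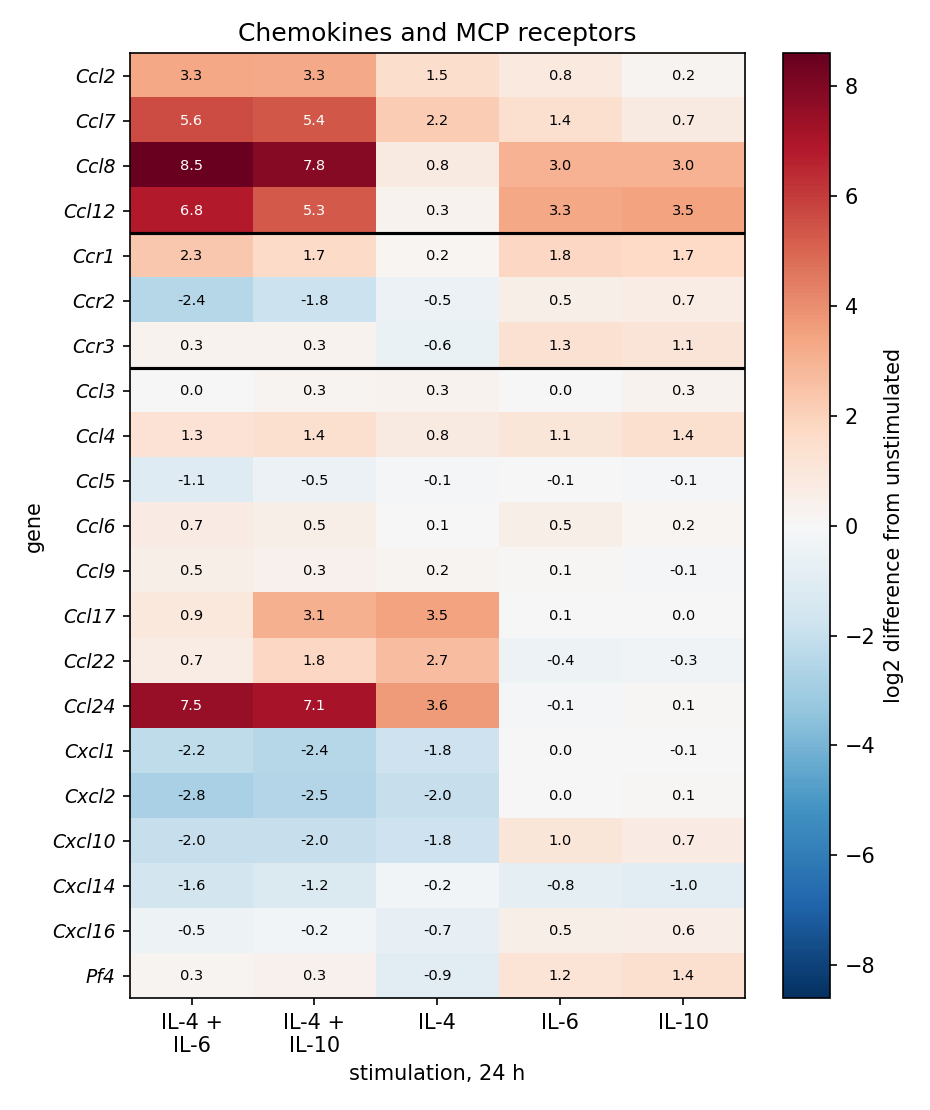
Log2 difference from unstimulated cells for the members (top block), the tested receptors (middle block) and the tested chemokines outside the cluster (bottom block), by stimulation, on one colour scale. Ccr2 is negative in both combinations (-2.42 and -1.82) where the members are positive, and Ccl24 is the one other chemokine with differences above 7 in both.

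Readouts of the signals were present in these cells. Socs3, a feedback inhibitor induced by STAT3, differed from unstimulated cells by 4.63 with IL-4 plus IL-6, 3.54 with IL-4 plus IL-10, 4.95 with IL-6 and 5.64 with IL-10, and by -0.51 with IL-4. Arg1, an arginine-degrading enzyme induced by STAT6, differed by 10.38 with IL-4 plus IL-6, 10.02 with IL-4 plus IL-10 and 7.75 with IL-4. The Socs3 interaction was 0.19 with IL-6 and -1.59 with IL-10, against Arg1 interactions of 2.20 and 2.36. These values are given as description. Socs3 lay under the filter in unstimulated cells (6.49) and with IL-4 (5.98), so its difference of -0.51 has both means under it. Arg1 lay under the filter in unstimulated cells (3.83), with IL-6 (4.25) and with IL-10 (3.73).

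A list of 14 tested genes held transcription factors known to act on the members, together with the inhibitor gene Nfkbia. Of these 14, 5 were higher and 8 lower with IL-4 plus IL-6, and 5 were higher and 6 lower with IL-4 plus IL-10. None had a positive interaction that was called, where 21.4% of all tested genes did with IL-6 and 15.5% with IL-10. Negative interactions were called for 5 with IL-6 and 3 with IL-10, against 18.6% and 10.1% of all tested genes. Fos, a subunit of AP-1, fell by 1.84 on the log2 scale with IL-4 plus IL-6 and by 1.26 with IL-4 plus IL-10, Nfkbia, the NF-kappaB inhibitor, fell by 0.997 and 0.53, and Stat3 rose by 0.78 and 0.74. Jun, another subunit of AP-1, went the other way from Fos. It averaged 9.50 with IL-4 plus IL-6 and 9.75 with IL-4 plus IL-10, against 8.71 in unstimulated cells, with no overlap of arrays. The shares of all tested genes in these comparisons were 35% higher and 38.8% lower with IL-4 plus IL-6, and 38.1% higher and 34% lower with IL-4 plus IL-10, so the counts of this and the next lists stand beside a large background. Of 6 tested mRNA decay factors, 2 were higher and 2 lower with IL-4 plus IL-6, and Zfp36l2, which binds AU-rich elements, fell by 1.76 with IL-4 plus IL-6 and by 1.75 with IL-4 plus IL-10. Of 5 tested proteases and binders, 2 were higher and 3 lower with IL-4 plus IL-6, among them Mmp13 (2.05) and Mmp8 (-1.26), both collagenases.

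Markers of cell types were followed beside the members. The mean log2 value of the 10 fibroblast and stroma markers lay between 5.14 and 5.34 on IL-4 plus IL-6 arrays, against 4.78 to 5.06 on unstimulated arrays. One of them, Postn, a matrix protein, had a mean above the filter in that group alone, at 7.19 ± 0.13 with IL-4 plus IL-6 (SD, n = 5) and 6.77 ± 0.14 with IL-4 plus IL-10 (SD, n = 3), against 5.55 ± 0.15 in unstimulated cells (SD, n = 8), and was called higher in both combinations (1.65 and 1.22, limma, adjusted p at most 1.24e-09). The mean of the 5 endothelial markers, 1 of them above the filter, lay between 5.64 and 5.82 with IL-4 plus IL-6, against 5.36 to 5.63 in unstimulated cells. The mean of the 7 neutrophil markers lay between 7.56 and 7.90 with IL-4 plus IL-6, against 7.95 to 8.33 in unstimulated cells. The mean of the 8 B lineage markers lay between 5.61 and 5.83 with IL-4 plus IL-10, against 6.02 to 7.55 in unstimulated cells of both sets. It was 6.02 to 6.11 with IL-10, also of the second set. In the first set it was 6.48 to 7.46 with IL-4 and 6.75 to 7.64 with IL-6. The mean of the 9 macrophage markers lay between 12.28 and 12.43 with IL-4 plus IL-6, against 12.84 to 12.97 in unstimulated cells. The difference between 3' and 5' Actb probe sets, a sign of RNA integrity, averaged 0.363 with IL-4 plus IL-6, 0.419 with IL-4 plus IL-10 and 0.248 with IL-6, against 0.364 in unstimulated cells, which averaged 0.318 in the first set and 0.441 in the second. The IL-4 plus IL-6 mean was thus above, and the IL-4 plus IL-10 mean below, that of the unstimulated arrays of its own set. The part of these markers in the results was not tested.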

How the data were processed

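The values are log2 intensities deposited by the authors, 1 per probe set and array, the product of RMA per the submitters' processing notes, which also name GCOS 1.4 without its role. Per the labels, 75 ng of total RNA was labelled for 3' expression arrays, and all 29 arrays were used without further normalization. Of 22690 probe sets, 20380 named 1 gene, 691 several and 1606 none, and the others were among the 64 array controls. The probe set with the highest mean stood for a gene, and 7153 of 12393 genes with at least 3 arrays above the median of all values (log2 6.99) were tested.

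One linear model over all groups was fitted (limma 3.58.1, R 4.3.3), with moderated two-sided tests in 17 comparisons, Benjamini-Hochberg adjustment over the genes tested and calls at an adjusted p under 0.05. The fit was tested on simulated data. Pairs of members were compared with exact permutation tests, and promoters were searched with Biopython 1.88.

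Genes named are the members, the 5 nearest to each, the receptors and cluster neighbours, Socs3 and Arg1, and up to 4 called genes of each other list. Members and lists were chosen with earlier results of these data known. Alternatives covered normalization, filter, probe sets, variance model, array weights, replicate block, set, threshold and each array left out, and a block within the set was added after seeing the data. Same-numbered arrays of a set deviated together in 33 of 33 pairs of arrays (correlation 0.457 to 0.776), and across sets in 8 of 24, so the numbers were taken to pair arrays within a set. The main fit and the exact permutation tests did not use this pairing, which entered only as the block within the set. The number of arrays limits the precision.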

Additional observations from a re-analysis of the deposited data

How the results depend on the processing

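Calls were recomputed under 13 other settings and with each of the 29 arrays left out. Among single members, calls changed in the comparisons of IL-10 with IL-6 and of the combinations with each other, and, when an array was left out, for Ccl12 with IL-4 against unstimulated cells. For IL-10 against IL-6, Ccl2 passed the threshold with quantile normalization (-0.61), median centring (-0.60), the filter at the 75th percentile or every probe set by itself (-0.62 in both), array weights (-0.67) and the replicate number as a block across sets (-0.61). Ccl7 did not pass with only the groups compared (-0.62), a threshold of 0.01 (-0.62) or a term for the set (-0.49). For IL-4 plus IL-6 against IL-4 plus IL-10, the term for the set gave -0.42 for Ccl2, with the sign turned, and 0.34 for Ccl8, no longer called. The replicate number as a block within the set, added after seeing the data, changed no member's call.

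With own-set controls only, 3 arrays against 3 cannot go below an exact p of 0.1, and the pair differences were -2.71 (Ccl2 minus Ccl8), -3.04 (Ccl2 minus Ccl12), -2.41 (Ccl7 minus Ccl8) and -2.74 (Ccl7 minus Ccl12) with IL-10. With IL-4 plus IL-10 they were -1.88 (Ccl2 minus Ccl7), -4.47 (Ccl2 minus Ccl8), -1.80 (Ccl2 minus Ccl12), -2.59 (Ccl7 minus Ccl8) and 2.67 (Ccl8 minus Ccl12). The comparisons that cross the sets, and the interaction with IL-10, have no own-set value.

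Leaving out each array gave ranges of 0.099 to 0.405 for Ccl12 with IL-4, -0.071 to 0.44 for Ccl2 with IL-10 (never called), and, for IL-10 against IL-6, -0.91 to -0.39 for Ccl2, -0.90 to -0.48 for Ccl7 and -0.13 to 0.29 for Ccl8, whose sign turned without IL-6 replicate 4 (-0.00693) or IL-10 replicate 2 (-0.13) or 3 (-0.0313). Pair differences ranged from 0.59 to 0.88 (Ccl2 minus Ccl8) and 0.35 to 0.68 (Ccl8 minus Ccl12) with IL-4, and from -0.49 to -0.25 (Ccl8 minus Ccl12) with IL-6. They ranged from -0.62 to -0.44 (Ccl2 minus Ccl7) with IL-10, and from -0.012 to 0.13 (Ccl7 minus Ccl12) with IL-4 plus IL-10. The IL-10 difference of Ccl2 and Ccl7 passed without unstimulated replicate 6 (-0.623) or 8 (-0.569), and the last turned sign without IL-4 plus IL-10 replicate 1.

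Genes called for IL-10 against IL-6 numbered 850, against 417 without a filter, 1788 with the replicate block, 7 with the set term and 89 to 1182 with an array left out (89 without IL-10 replicate 2, and 477, 471 and 467 without IL-10 replicate 1, IL-6 replicate 1 and IL-6 replicate 4). Own-set controls gave 1394 calls, against 2704, for IL-10. The set term gave 2370, against 4100, for IL-4 plus IL-10 against IL-4, and 1159, against 3063, for IL-4 plus IL-6 against IL-4 plus IL-10. The filter at the 75th percentile, which tests fewer genes, gave 2661 to 3301 calls in 11 comparisons that had 4100 to 5281, and every probe set by itself, which tests more features, gave 1652 to 8010 in 12 that had 850 to 5281. Beyond these constructions the cause was not tested. Low intensity limits Ccl8 and Ccl12 in IL-4 and unstimulated cells, where neither was above the filter.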
